A study of Homo sapiens with 6 samples.

Results

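The 8 glycolytic isozyme genes described here were measured in 6 RNA-seq libraries of the human liver cancer cell line Huh-7: the pyruvate kinases PKM and PKLR, the aldolases ALDOA and ALDOC, the hexokinases HK1 and HK2, and the lactate dehydrogenase subunits LDHA and LDHB. They were found by matching Entrez gene identifiers to these symbols, which gave 8 of the 18030 genes in the table and 40 of its 80668 transcripts. The oeALKBH5 group held 3 libraries of cells electroporated with a plasmid for ALKBH5, a demethylase that removes N6-methyladenosine from RNA, with RNA taken 60 h later. The control group held 3 libraries of Huh-7 labelled WT, which the series design calls parental. The labels give controls the same treatment text as oeALKBH5 cells and list all 6 libraries as untreated, so whether controls were pulsed, with or without an empty plasmid, is not stated. The promoter of the plasmid is not given in the sources used here. By their titles the libraries of each group are biological replicates. No label says whether cultures or electroporations were separate, so part of the spread behind the p-values may be technical.

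Glycolysis uses sets of isozymes, enzymes from different genes that catalyse 1 reaction. Adult hepatocytes rely on the L form of PKLR and on other forms suited to making as well as burning glucose. Proliferating and tumour cells rely on the M2 form of PKM, on ALDOA and on HK2. PKM makes its M1 and M2 forms by including 1 or the other of a pair of mutually exclusive exons, and PKLR makes its R form in red cells and its L form in liver from different first exons. Glucose induces PKLR in liver through a paired E-box bound by the factor MLXIPL (ChREBP), and low oxygen induces HK2, LDHA and other glycolytic genes through the factor HIF1A.

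The alternative exons of PKM are shown because M1 and M2 can be told apart only by reads that touch them. They lie at chr15:72203022-72203188 (M1) and chr15:72202454-72202620 (M2), on the minus strand of GRCh38 in GENCODE release 29, and are coding. Each is 167 nt long. Capitals mark the 62 positions at which they differ, which leaves 105 shared positions and an identity of 62.9%.
PKM M1 exon: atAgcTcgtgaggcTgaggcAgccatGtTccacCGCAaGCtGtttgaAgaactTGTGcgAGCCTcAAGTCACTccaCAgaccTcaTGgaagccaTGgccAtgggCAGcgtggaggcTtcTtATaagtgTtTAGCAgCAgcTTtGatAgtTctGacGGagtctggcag
PKM M2 exon: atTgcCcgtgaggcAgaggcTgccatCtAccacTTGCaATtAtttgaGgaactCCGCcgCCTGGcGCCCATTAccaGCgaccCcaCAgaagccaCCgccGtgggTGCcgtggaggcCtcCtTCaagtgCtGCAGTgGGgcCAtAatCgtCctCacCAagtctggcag

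Windows from 250 bases before to 50 bases after a start site are shown for 3 isozyme genes that passed the test, from RefSeq on GRCh38.p14. The PKLR window belongs to the L-type start (chr1:155300903-155301202, minus strand), the HK2 window to chr2:74833877-74834176 (plus strand) and the LDHA window to chr11:18394313-18394612 (plus strand). Capitals in PKLR mark the paired E-box, searched as the E-boxes CACGNG and CNCGTG with 5 bases between them, and capitals in HK2 and LDHA mark the HIF core, searched as ACGTG or GCGTG, both on either strand.
PKLR L-type window: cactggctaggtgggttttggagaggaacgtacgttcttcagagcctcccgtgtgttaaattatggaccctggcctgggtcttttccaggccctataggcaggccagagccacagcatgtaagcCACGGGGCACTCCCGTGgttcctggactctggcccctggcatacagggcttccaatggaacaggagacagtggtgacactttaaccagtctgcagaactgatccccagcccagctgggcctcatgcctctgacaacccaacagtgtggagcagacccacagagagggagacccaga
HK2 window: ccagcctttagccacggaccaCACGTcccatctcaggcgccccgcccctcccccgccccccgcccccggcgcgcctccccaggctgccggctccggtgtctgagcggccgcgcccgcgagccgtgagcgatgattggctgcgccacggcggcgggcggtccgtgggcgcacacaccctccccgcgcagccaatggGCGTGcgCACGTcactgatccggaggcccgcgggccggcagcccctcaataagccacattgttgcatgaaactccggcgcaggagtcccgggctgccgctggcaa
LDHA window: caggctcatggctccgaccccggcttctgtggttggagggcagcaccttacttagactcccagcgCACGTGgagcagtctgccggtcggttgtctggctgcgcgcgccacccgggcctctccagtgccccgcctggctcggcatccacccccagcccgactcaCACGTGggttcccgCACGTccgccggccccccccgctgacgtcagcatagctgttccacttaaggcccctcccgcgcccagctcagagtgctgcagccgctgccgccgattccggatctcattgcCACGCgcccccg

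The paired E-box lay 126 bases before the start used for the PKLR L-type window (chr1:155300952) and was found in 8 of 35116 RefSeq windows (0.0228%). Its letters were written with that known element in view, so the match is a description. GENCODE starts the L-type transcript NM_181871.4 at 155301001, so the distance depends on the annotation. The HIF core was found in 13 of the 19 windows of the isozyme genes, against 48.4% of all windows. An E-box CACGTG counts as a HIF core on each strand, and 7.26% of all windows held one. The HK2 window held 3 HIF cores and the LDHA window 6, of which 4 came from its 2 CACGTG sites. The single PKM window held 1 HIF core, 12 bases after the start. By gene, the core was in 2 of 2 windows for HK2, 2 of 2 for LDHA and 1 of 1 for PKM, all higher in oeALKBH5 cells. It was also in 1 of 1 for ALDOC and 1 of 2 for PKLR, both lower. Among genes that did not pass, it was in 3 of 3 for ALDOA, 1 of 1 for LDHB and 2 of 7 for HK1. No binding was measured, and a match says nothing of a factor's presence there.

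Depth was 18607084 to 18826479 estimated counts per library in oeALKBH5, against 19265686 to 19378030 in control. Together the 8 genes held 0.407% to 0.470% of counts in oeALKBH5 libraries, against 0.344% to 0.349% in control libraries. ALKBH5 itself stood at 55.8, 44.3 and 36.1 FPKM in oeALKBH5 libraries 1 to 3, against 21.9, 23.4 and 23.6 FPKM in control (log2 fold change 0.90, SE 0.177, edgeR adjusted p = 0.0154). OeALKBH5 library 1 differed most from its group, with a chi-square per degree of freedom over genes of 4.70 and 7.50 against the other 2, which differed from each other by 3.14; pairs of control libraries differed by 1.66 to 2.36. All 10 hepatocyte and hepatoma markers listed were at 1 FPKM or more, with a summed level of 8209 to 8962 FPKM in oeALKBH5 and 12701 to 12976 FPKM in control. None of 9 erythroid and none of 6 muscle markers reached a mean of 1 FPKM. Among markers of other lineages, 3 of 6 neuronal (SNAP25, SYP and TUBB3), 2 of 4 leukocyte (CD14 and PTPRC) and 2 of 4 fibroblast genes (COL1A2 and PDGFRB) did.

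PKM, HK2 and LDHA were higher in oeALKBH5 cells, PKLR and ALDOC were lower, and ALDOA, HK1 and LDHB did not pass the test. All 8 genes passed the filter on low counts. A gene passed at an edgeR adjusted p under 0.05 (quasi-likelihood test, Benjamini-Hochberg over 14168 genes), and 42.8% of all genes tested did so. Of the genes tested, 20.8% were higher and 22% were lower, against 3 and 2 of the 8 isozyme genes. With library size as the single scaling, 4266 genes were higher and 2047 lower, against 2948 and 3114 with TMM scaling, and the calls on the isozyme genes stayed as given. The median log2 fold change was 0.12 over the 8 genes and 0.01 over all genes tested.

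**Figure D1:**
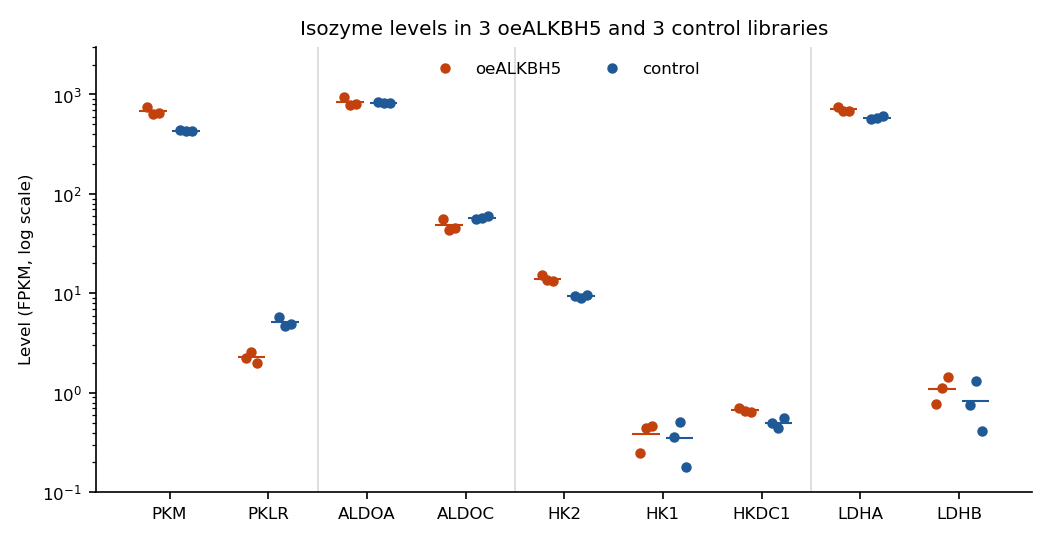
Levels of the isozyme genes and of the paralogue HKDC1 in FPKM (fragment counts divided by transcript length and by depth), on a log axis, with 1 point per library and a line at the mean; oeALKBH5 is left of control. PKM lay at 639 to 749.5 FPKM in oeALKBH5 and at 428 to 443 in control, and PKLR at 2.0 to 2.58 in oeALKBH5 and at 4.75 to 5.78 in control.

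Within the cells, ALDOA, LDHA and PKM stood far above the other isozyme genes when compared per length. By mean FPKM they ranked 73, 95 and 100 of 18030 genes in oeALKBH5 cells, and 83, 131 and 174 in control cells. In oeALKBH5 cells the order was ALDOA (838 ± 83.2), LDHA (709 ± 40.9), PKM (678 ± 62.2), ALDOC (48.7 ± 6.91), HK2 (14.1 ± 0.981), PKLR (2.27 ± 0.291), LDHB (1.11 ± 0.335) and HK1 (0.387 ± 0.119 FPKM; SD, n = 3). In control cells it was ALDOA (823 ± 8.18), LDHA (585 ± 17.9), PKM (433 ± 8.72), ALDOC (57.4 ± 2.31), HK2 (9.37 ± 0.303), PKLR (5.14 ± 0.556), LDHB (0.827 ± 0.460) and HK1 (0.350 ± 0.165 FPKM; SD, n = 3). Among neighbours in this order, the library ranges of LDHA and PKM overlapped in oeALKBH5 cells and not in control cells, while those of LDHB and HK1 overlapped in control and not in oeALKBH5 cells. The ranges of the other neighbours were apart in both groups.

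PKM, whose product makes pyruvate in most tissues and tumours, had 749.5, 639 and 645 FPKM in oeALKBH5 libraries, against 443, 428 and 428 FPKM in control libraries. The groups did not overlap, and oeALKBH5 library 1 was the highest. In scaled counts PKM averaged 1491 ± 136 CPM in oeALKBH5 libraries, against 1006 ± 26.4 CPM in control libraries (SD, n = 3 each). It was 1.48-fold higher in oeALKBH5 (log2 fold change 0.57, SE 0.0552, edgeR adjusted p = 2.67e-07). Without oeALKBH5 library 1 the log2 fold change was 0.49. Some markers of other lineages also moved. Of 4 fibroblast markers 3 were tested. COL1A1 and COL1A2 were higher, by log2 fold changes of 1.07 and 0.92 (edgeR adjusted p = 0.00239 and 6.61e-07). PDGFRB did not pass, at a log2 fold change of -0.20 (edgeR adjusted p = 0.124). The 4 fibroblast markers summed to 5.08 to 5.17 FPKM in oeALKBH5 and 3.57 to 3.63 FPKM in control. SNAP25 was higher (0.42, edgeR adjusted p = 0.00551) and SYP lower (-1.56, edgeR adjusted p = 1.38e-07) among the neuronal markers, which summed to 91.0 to 103 FPKM in oeALKBH5 and 87.8 to 95.8 FPKM in control. Of the muscle markers ACTA1 was higher (1.27, edgeR adjusted p = 0.00407), in a sum of 0.75 to 1.19 FPKM in oeALKBH5 and 0.33 to 0.71 FPKM in control, and neither leukocyte marker tested passed. Their part in the isozyme results was not tested. PKM lies at chr15:72199029-72231822 on the minus strand of GRCh38.

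PKLR, the pyruvate kinase of liver and red cells, had 2.24, 2.58 and 2.0 FPKM in oeALKBH5 libraries, against 5.78, 4.75 and 4.90 FPKM in control libraries. Every oeALKBH5 library was below every control library. The estimated counts behind these values were 117, 135 and 110.1 in oeALKBH5, against 294, 253 and 261 in control. The level fell 2.28-fold to 6.28 ± 0.655 CPM in oeALKBH5, against 14.3 ± 1.29 CPM in control libraries (SD, n = 3 each). Its log2 fold change was -1.19 (SE 0.107, edgeR adjusted p = 3.28e-08), and 0.544% of the genes tested had a lower value. All 10 hepatocyte and hepatoma markers passed as lower in oeALKBH5 cells, although the call on HNF4A was kept under only 7 of 15 alternative fits. The part of these markers in the PKLR result was not tested. In these bulk samples, fewer cells with a transcript and less of it per cell cannot be told apart. PKLR lies at chr1:155289293-155301438 on the minus strand of GRCh38.

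Between the paired isozymes, PKM stood 298-fold above PKLR in oeALKBH5 cells and 84.2-fold above it in control cells by mean FPKM. The log2 ratio was 8.22 ± 0.237 in oeALKBH5 and 6.40 ± 0.124 in control (SD, n = 3 each), a difference of 1.82, and the groups did not overlap (exact two-sided permutation p = 0.1, adjusted over 4 ratios 0.2). With 3 against 3 libraries this test cannot go below 0.1. PKLR thus made up 0.298%, 0.402% and 0.309% of pyruvate kinase FPKM in oeALKBH5 libraries, against 1.29%, 1.10% and 1.13% in control libraries. PKM was the main pyruvate kinase transcript in all 6 libraries.

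**Figure D2:**
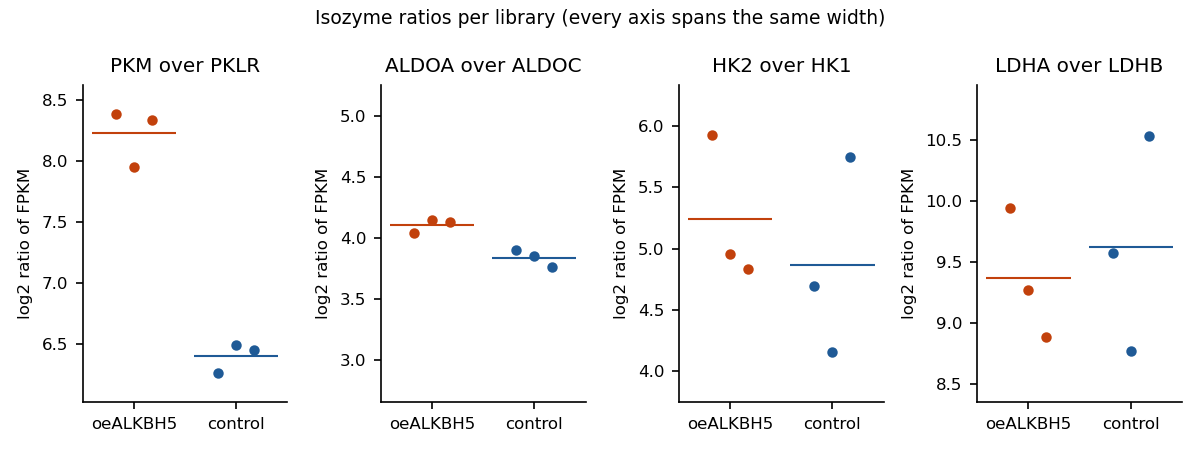
Log2 ratio of FPKM between paired isozymes, with 1 point per library, a line at the mean and axes of equal width; oeALKBH5 is left of control. The groups are separate for PKM over PKLR (a difference of 1.82) and ALDOA over ALDOC (0.27) and overlap for HK2 over HK1 and LDHA over LDHB.

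The M2 form made up nearly all of PKM in both groups. Transcripts with the M2 exon (3 of the 12 PKM transcripts) summed to 738, 629.6 and 632 FPKM in oeALKBH5 libraries, against 432, 409.7 and 393 FPKM in control libraries. Transcripts with the M1 exon (5 of 12) summed to 6.95, 8.57 and 7.17 FPKM in oeALKBH5 libraries, against 3.03, 4.48 and 2.66 FPKM in control libraries. Exon content was read from the GENCODE transcript matched to each. NM_182471.4, NM_182470.3, NM_001206796.3 and NM_001316318.2 share the same match, ENST00000319622.10. Neither class overlapped between the groups, and the ratio of group means was 1.62 for M2 and 2.23 for M1.

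M1 was 0.933%, 1.34% and 1.12% of the M1 plus M2 sum in oeALKBH5 libraries, against 0.696%, 1.08% and 0.671% in control libraries. The ranges overlapped (exact two-sided permutation p = 0.2). The main M1 transcript NM_182471.4 taken alone held 0.902%, 1.005% and 0.997% of PKM FPKM in oeALKBH5 libraries, against 0.605%, 0.666% and 0.579% in control libraries, and these ranges were apart (exact two-sided permutation p = 0.1). M2-exon transcripts held 98.0% to 98.5% of PKM FPKM in oeALKBH5 and 91.9% to 97.5% in control libraries, also apart (exact two-sided permutation p = 0.1). With 3 against 3 libraries 0.1 is the lowest p, and adjusted over 36 transcript shares no share was below 0.212, so these shares are a description and the test could pass none of them. The M1 class rests on 117 to 373 estimated counts per library.

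Single transcripts varied more between libraries than gene sums did. In 45502 transcripts tested with edgeR, 1.01% passed, and 3 of the 25 isozyme transcripts that passed the filter did so. The count depended on the tool: with DESeq2 10 of the 25 passed, against 8.91% of all transcripts, and on log2(FPKM + 1) and log2(FPKM + 0.1) 5 and 6 of 17 did, against 4.04% and 3.63%. With limma-voom 2 of the 25 passed, against 663 of all 45502, and with edgeR and no filter 2 of 39, against 400 of all 79719. With edgeR and the replicate number as a block 0 of the 25 passed (7 at an unadjusted p under 0.05, against 3799 of all 45502 transcripts). With any 1 library left out 0 of 27 or 28 passed. Of these, 10 to 14 had an unadjusted p under 0.05, against 4840 to 5542 of all 50608 to 51050 transcripts. The main M2 transcript NM_002654.6 had 729.8, 623 and 623 FPKM in oeALKBH5 libraries, against 427, 406 and 389.9 FPKM in control libraries (log2 fold change 0.62, SE 0.0751, edgeR adjusted p = 0.0393). The main M1 transcript NM_182471.4 had 6.76, 6.42 and 6.43 FPKM in oeALKBH5 libraries, against 2.68, 2.85 and 2.48 FPKM in control libraries (log2 fold change 1.21, SE 0.156, edgeR adjusted p = 0.0411). The groups were apart for both. These calls were lost when any of the 6 libraries was left out, with adjusted p from 0.0501 to 0.188 for M2 and from 0.121 to 0.185 for M1. With all 6 libraries, NM_002654.6 missed the threshold with limma-voom (adjusted p = 0.0543) and NM_182471.4 with no filter (edgeR adjusted p = 0.0634). The biological coefficient of variation was 96.3% over transcripts and 4.61% over genes.

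A further PKM transcript went the other way: XM_005254445.5 had 0.01, 0 and 4.77 FPKM in oeALKBH5 libraries, against 6.70, 13.9 and 30.7 FPKM in control libraries. It was not matched to GENCODE, so the exon it carries is not given here, and it did not pass (edgeR adjusted p = 0.785). The 4 unmatched PKM transcripts together held 0.131% to 0.842% of PKM FPKM in oeALKBH5 and 1.83% to 7.44% in control libraries. Another of them, XM_006720570.1, was at 0 in every control library and had 108, 39.2 and 29.01 estimated counts in oeALKBH5 libraries. It did not pass with edgeR (adjusted p = 0.124) and did with DESeq2 (adjusted p = 4.15e-06). Setting 3 counts over the control group gives a nominal 60.8-fold higher level, which is not a bound. The model that divides reads among transcripts of 1 gene sets these values.

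**Figure D3:**
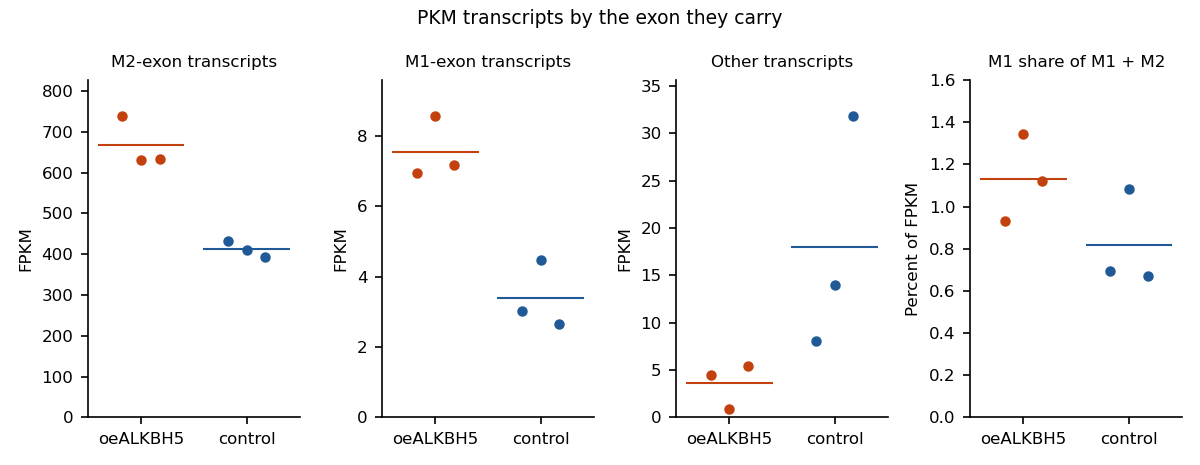
PKM transcripts summed by the alternative exon they carry, in FPKM with axes from 0, and the M1 share of M1 plus M2 in percent; points are libraries, lines are means, and oeALKBH5 is left of control. M2-exon transcripts hold 629.6 to 738 FPKM in oeALKBH5 and 393 to 432 in control, and the M1 shares overlap.

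The main transcript of PKLR was the L-type NM_181871.4, which had 1.94, 2.28 and 2.0 FPKM in oeALKBH5 libraries, against 4.06, 3.88 and 3.70 FPKM in control libraries. The groups did not overlap, and the transcript missed the threshold (log2 fold change -0.98, SE 0.181, edgeR adjusted p = 0.0901). It passed with DESeq2 (adjusted p = 2.64e-08) and on log2(FPKM + 0.1) with limma (adjusted p = 0.0454). The R-type transcript NM_000298.6 was listed at 0 in 5 libraries and at 0.27 FPKM in control library 3.

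The predicted transcript XM_011509640.3, not matched to GENCODE, had no count in any oeALKBH5 library and 65.3, 33.2 and 35.6 estimated counts in control libraries. It did not pass with edgeR (adjusted p = 0.101) and did with DESeq2 (adjusted p = 5.73e-07). Setting 3 counts over the oeALKBH5 group gives a nominal 43.3-fold lower level. Reads are shared out among transcripts by a model, so a value of 0 does not bound the level. Another unmatched transcript, XM_006711386.4, had 0.30, 0.30 and 0 FPKM in oeALKBH5 libraries and was listed at 0 in control libraries. NM_181871.4 alone made up 86.6%, 88.4% and 100% of PKLR FPKM in oeALKBH5 libraries, against 70.2%, 81.7% and 75.5% in control libraries; the type of the unmatched transcripts is not given here, so the whole L-type share was not measured. A test of transcript use asks whether a transcript moved against the other transcripts of its gene (edgeR's diffSpliceDGE). It passed for 0.0606% of 41249 single transcripts and for 0 of 24 isozyme transcripts. An unadjusted p under 0.05 was found for 4 of the 24 and for 709 of the 41249. Taken by gene, diffSpliceDGE gave PKLR an adjusted p of 0.00281 and the other isozyme genes tested 0.167 or more. The share of all genes passing at that level is not given here. With limma's diffSplice 0.601% of all transcripts passed and 2 of the 24 did, NM_181871.4 and XM_011509640.3 (adjusted p = 0.0262 for each); these are the only PKLR transcripts tested, so they give 1 contrast seen from both sides. On simulated data with this spread diffSpliceDGE recovered none of the changes and made false calls, and limma's tool recovered few, so no result rests on either.

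**Figure D4:**
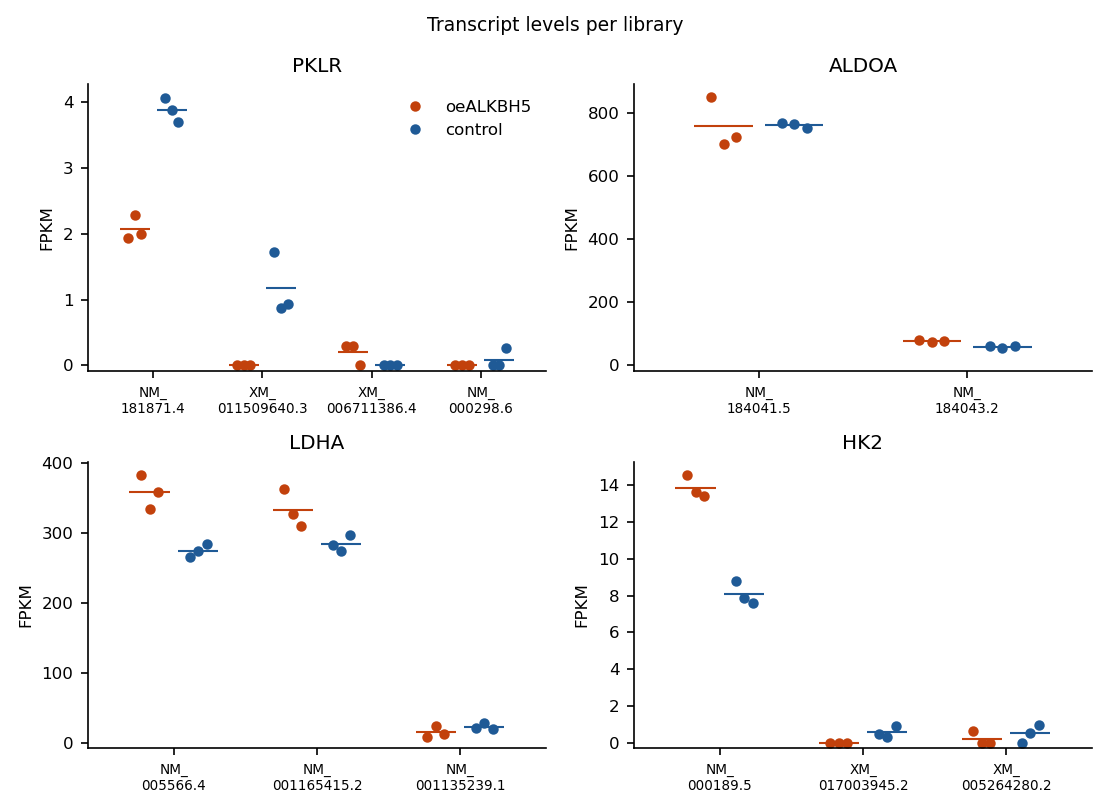
Transcript levels of PKLR, ALDOA, LDHA and HK2 in FPKM, with 1 point per library and a line at the mean; oeALKBH5 is left of control. NM_181871.4 of PKLR lies at 1.94 to 2.28 FPKM in oeALKBH5 and at 3.70 to 4.06 in control, and NM_000189.5 of HK2 at 13.4 to 14.6 in oeALKBH5 and at 7.60 to 8.82 in control.

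HK2, the hexokinase of muscle, fat and many tumours that traps glucose in the cell, had 15.2, 13.6 and 13.4 FPKM in oeALKBH5 libraries, against 9.32, 9.09 and 9.69 FPKM in control libraries. All oeALKBH5 libraries were above all control libraries. HK2 averaged 76.5 ± 5.23 CPM in oeALKBH5 libraries, against 53.7 ± 1.87 CPM in control libraries (SD, n = 3 each), 1.43-fold higher (log2 fold change 0.51, SE 0.0573, edgeR adjusted p = 7.07e-07). Of its other transcripts XM_017003945.2 was listed at 0 in oeALKBH5 libraries and had 0.50, 0.32 and 0.91 FPKM in control libraries. XM_017003945.2 did not pass with edgeR (adjusted p = 0.1) and passed with DESeq2 (adjusted p = 3.07e-07). XM_005264280.2 and NM_001371525.1 lay at 0 to 0.97 FPKM over all libraries. NM_000189.5 held 95.7% to 100% of HK2 FPKM in oeALKBH5 and 78.4% to 94.6% in control libraries. NM_000189.5 passed (log2 fold change 0.70, SE 0.0741, edgeR adjusted p = 0.0275) and no longer did when any library was left out, with adjusted p from 0.0754 to 0.15. HK2 lies at chr2:74833981-74893359 on the plus strand.

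HK1, the housekeeping hexokinase of brain and red cells, was close to the limit of detection. Its estimated counts were 17, 29.5 and 31.9 in oeALKBH5 libraries, against 25, 36.1 and 14 in control libraries, and the groups overlapped. The log2 fold change was 0.02 (SE 0.316, edgeR adjusted p = 0.957), and its sign depended on the libraries used. None of the 6 HK1 transcripts passed the filter, and the model placed reads on different ones in different libraries: NM_000188.2 had 0, 0.40 and 0.38 FPKM in oeALKBH5 and was listed at 0 in control libraries, while NM_001322366.1 was listed at 0 in oeALKBH5 and had 0.22, 0.31 and 0 FPKM in control. At this depth no isoform of HK1 could be followed.

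HK3, a further hexokinase, held at most 1 count in any library. HKDC1, a hexokinase-like gene, had 0.70, 0.66 and 0.65 FPKM in oeALKBH5 libraries, against 0.50, 0.44 and 0.56 FPKM in control libraries, and did not pass (edgeR adjusted p = 0.171). HK2 made up 92.3% to 94.0% of the summed FPKM of HK1, HK2, HK3 and HKDC1 in oeALKBH5 and 90.5% to 92.9% in control libraries. The log2 ratio of HK2 over HK1 was 5.24 ± 0.599 in oeALKBH5 and 4.87 ± 0.811 in control (SD, n = 3 each), and the groups overlapped (exact two-sided permutation p = 0.5, adjusted 0.667).

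ALDOC, the aldolase known from brain, had 56.6, 43.9 and 45.6 FPKM in oeALKBH5 libraries, against 55.6, 56.7 and 60.0 FPKM in control libraries. On this scale oeALKBH5 library 1 lay within the control range. In scaled counts the groups were apart, at 86.6, 66.3 and 70.3 CPM in oeALKBH5 and 90.6, 91.1 and 97.2 CPM in control, and ALDOC fell 1.25-fold (log2 fold change -0.32, SE 0.0849, edgeR adjusted p = 0.0102). The call was lost without oeALKBH5 library 3 (log2 fold change -0.28, edgeR adjusted p = 0.0828). Its transcript NM_005165.3 did not pass (log2 fold change -0.20, edgeR adjusted p = 0.459). XM_011524556.2, not matched to GENCODE, had 3.71, 1.33 and 0.98 FPKM in oeALKBH5 libraries, against 3.37, 9.21 and 5.99 FPKM in control libraries, with overlap (edgeR adjusted p = 0.459). XM_005257949.2 lay at 0.91 to 4.53 FPKM in oeALKBH5 and 1.6 to 4.88 FPKM in control libraries.

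ALDOA, the aldolase of muscle and most tumours, had 933, 778 and 802 FPKM in oeALKBH5 libraries, against 832, 819.6 and 817 FPKM in control libraries. The groups overlapped, with oeALKBH5 library 1 highest and the other oeALKBH5 libraries lowest. The log2 fold change was -0.05 (SE 0.0571, edgeR adjusted p = 0.491). Without oeALKBH5 library 1 it was -0.13 and passed (edgeR adjusted p = 0.00923), and with library size as the single scaling or in FPKM it was above 0 and did not pass.

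ALDOA is read from several start sites, and its transcripts differed. NM_184041.5, which starts at position 30065673 of chromosome 16, had 849.7, 702 and 723 FPKM in oeALKBH5 libraries, against 768, 763 and 753 FPKM in control libraries. NM_184043.2, which starts upstream at 30064274, had 80.5, 74.0 and 77.2 FPKM in oeALKBH5 libraries, against 61.2, 54.2 and 61.3 FPKM in control libraries. The upstream transcript thus stood higher in every oeALKBH5 library than in any control library, at 8.63% to 9.62% of ALDOA FPKM in oeALKBH5 and 6.61% to 7.50% in control (exact two-sided permutation p = 0.1, the lowest possible). It did not pass across transcripts (log2 fold change 0.32, SE 0.0687, edgeR adjusted p = 0.13; DESeq2 adjusted p = 0.000408). The other ALDOA transcripts were minor: NM_001127617.2 had 0.76 to 1.46 FPKM in oeALKBH5 and 0.54 to 0.93 FPKM in control libraries, and NM_001243177.4 had 0.74 to 1.24 FPKM in oeALKBH5 and 1.42 to 1.91 FPKM in control libraries.

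The log2 ratio of ALDOA over ALDOC was 4.11 ± 0.0582 in oeALKBH5 and 3.84 ± 0.0697 in control (SD, n = 3 each), a difference of 0.27 (exact two-sided permutation p = 0.1, adjusted 0.2). ALDOC held 5.34% to 5.72% of the summed FPKM of ALDOA and ALDOC in oeALKBH5 and 6.26% to 6.85% in control libraries, without overlap.

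LDHA, the subunit that favours making lactate from pyruvate, had 756, 687 and 683 FPKM in oeALKBH5 libraries, against 571, 579 and 605 FPKM in control libraries. The groups did not overlap. LDHA was 1.15-fold higher (1355 ± 76.2 CPM in oeALKBH5, against 1174 ± 35.1 CPM in control; SD, n = 3 each; log2 fold change 0.21, SE 0.0476, edgeR adjusted p = 0.00158), and 75.8% of the genes tested had a lower fold change. Its main transcripts were NM_005566.4, with 383, 333 and 359 FPKM in oeALKBH5 libraries, against 265, 274 and 284 FPKM in control libraries, and NM_001165415.2, with 362, 327 and 310.2 FPKM in oeALKBH5 libraries, against 283, 274 and 297 FPKM in control libraries. Neither passed with edgeR (adjusted p = 0.099 and 0.523), although neither overlapped between groups in FPKM. In the scaled counts that edgeR tested, NM_001165415.2 did overlap, at 527.1 CPM in oeALKBH5 library 3 and 527.7 CPM in control library 3. NM_005566.4 passed with DESeq2 (adjusted p = 1.46e-05). NM_001135239.1 had a lower mean in oeALKBH5, with 7.91, 24.5 and 12.3 FPKM in oeALKBH5 libraries, against 20.5, 28.3 and 19.5 FPKM in control libraries, and the groups overlapped (log2 fold change -0.69, edgeR adjusted p = 0.84). NM_001165414.1 lay at 2.23 to 3.36 FPKM in oeALKBH5 and 2.72 to 4.79 FPKM in control libraries.

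LDHB, the subunit that prevails in heart, was nearly absent: its estimated counts were 19, 26 and 34 in oeALKBH5 libraries, against 18, 32 and 10 in control libraries. The groups overlapped, as did those of its transcript NM_002300.8, at 0.54 to 1.44 FPKM in oeALKBH5 and 0.41 to 1.32 FPKM in control libraries (gene log2 fold change 0.36, SE 0.343, edgeR adjusted p = 0.418). LDHB made up 0.102% to 0.210% of lactate dehydrogenase FPKM in oeALKBH5 and 0.0677% to 0.227% in control libraries. LDHC, LDHAL6A and LDHAL6B, related genes known mostly from testis, reached at most 0.30 FPKM in any library. The log2 ratio of LDHA over LDHB was 9.37 ± 0.531 in oeALKBH5 and 9.63 ± 0.877 in control (SD, n = 3 each), with overlap (exact two-sided permutation p = 0.7, adjusted 0.7).

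Other genes of the pathway moved in both directions. Of 12 tested glycolytic genes outside the isozymes above, 3 were higher, 1 was lower and 8 did not pass, beside 20.8% higher and 22% lower over all genes tested, with a median log2 fold change of 0.02. The enolase ENO2, known from neurons, was higher in oeALKBH5 cells at 11.5 ± 1.13 CPM, against 4.70 ± 0.522 CPM in control (log2 fold change 1.29, SE 0.118, edgeR adjusted p = 4.27e-08). ENO3, the muscle enolase, was higher by 0.44 and PGAM1, a phosphoglycerate mutase, by 0.16 on the log2 scale (edgeR adjusted p = 0.00014 and 0.00564). The main enolase ENO1 was at 1152 ± 88.2 CPM in oeALKBH5 and 1145 ± 14.6 CPM in control (log2 fold change 0.01, edgeR adjusted p = 0.897). GAPDH was lower by a log2 fold change of -0.16 (edgeR adjusted p = 0.014), and that call was lost with library size as the single scaling, in FPKM, and without oeALKBH5 library 2 or control library 1.

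Of 16 carriers and regulators of glycolysis, 6 were higher, 3 were lower and 7 did not pass, beside the same 20.8% and 22% over all genes, with a median log2 fold change of 0.11. SLC2A1, the glucose carrier GLUT1, was higher at 64.2 ± 8.94 CPM in oeALKBH5, against 33.8 ± 2.22 CPM in control (log2 fold change 0.93, edgeR adjusted p = 6.09e-06). SLC2A2, the liver glucose carrier GLUT2, was lower at 42.5 ± 5.44 CPM in oeALKBH5, against 69.0 ± 1.40 CPM in control (log2 fold change -0.70, edgeR adjusted p = 1.04e-06). PDK1, a kinase that keeps pyruvate from the mitochondrion's dehydrogenase, was higher at 34.1 ± 6.89 CPM in oeALKBH5, against 16.3 ± 0.523 CPM in control (log2 fold change 1.07, edgeR adjusted p = 0.000193). The other named genes that were higher were PFKFB3, which makes an activator of phosphofructokinase (0.42, edgeR adjusted p = 9.45e-06), and SLC16A3, the lactate exporter MCT4 (0.48, edgeR adjusted p = 1.09e-05). GCKR, a regulator of glucose use in liver, was lower (-0.76, edgeR adjusted p = 8.46e-06), as was PFKFB1, the liver form of the PFKFB enzymes (-0.64, edgeR adjusted p = 0.033), whose call was lost under 6 alternatives.

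Of 17 factors known to act on these genes, 5 were higher, 4 were lower and 8 did not pass, beside 20.8% and 22%, with a median log2 fold change of -0.05. MYC, HIF1A and the glucose-responsive factor MLXIP were higher, by log2 fold changes of 0.29, 0.30 and 0.28 (edgeR adjusted p = 0.000428, 0.00105 and 0.000403). MLXIPL, the glucose-responsive factor of liver, was at 49.6 ± 2.87 CPM in oeALKBH5 and 48.1 ± 4.17 CPM in control (edgeR adjusted p = 0.614). RNA-binding proteins known to favour the M2 exon did not move together: HNRNPA2B1 was higher (0.18, edgeR adjusted p = 0.0149), as was PTBP1 (0.12, edgeR adjusted p = 0.0273; named after its value was seen), and HNRNPA1 was lower (-0.24, edgeR adjusted p = 0.00135), although HNRNPA1 has near-identical copies. SRSF3, also known to favour that exon, was at 293 ± 18.9 CPM in oeALKBH5, against 303 ± 11.9 CPM in control libraries (log2 fold change -0.05, edgeR adjusted p = 0.458; named outside the rule). USF2, USF1 and HNF4A, which bind liver promoters, were lower by log2 fold changes of -0.21, -0.15 and -0.12 (edgeR adjusted p = 0.00113, 0.0294 and 0.0298); the calls on USF1 and HNF4A were each lost under 8 of 15 alternatives, and that on HNRNPA2B1 without oeALKBH5 library 2 or control library 1.

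**Figure D5:**
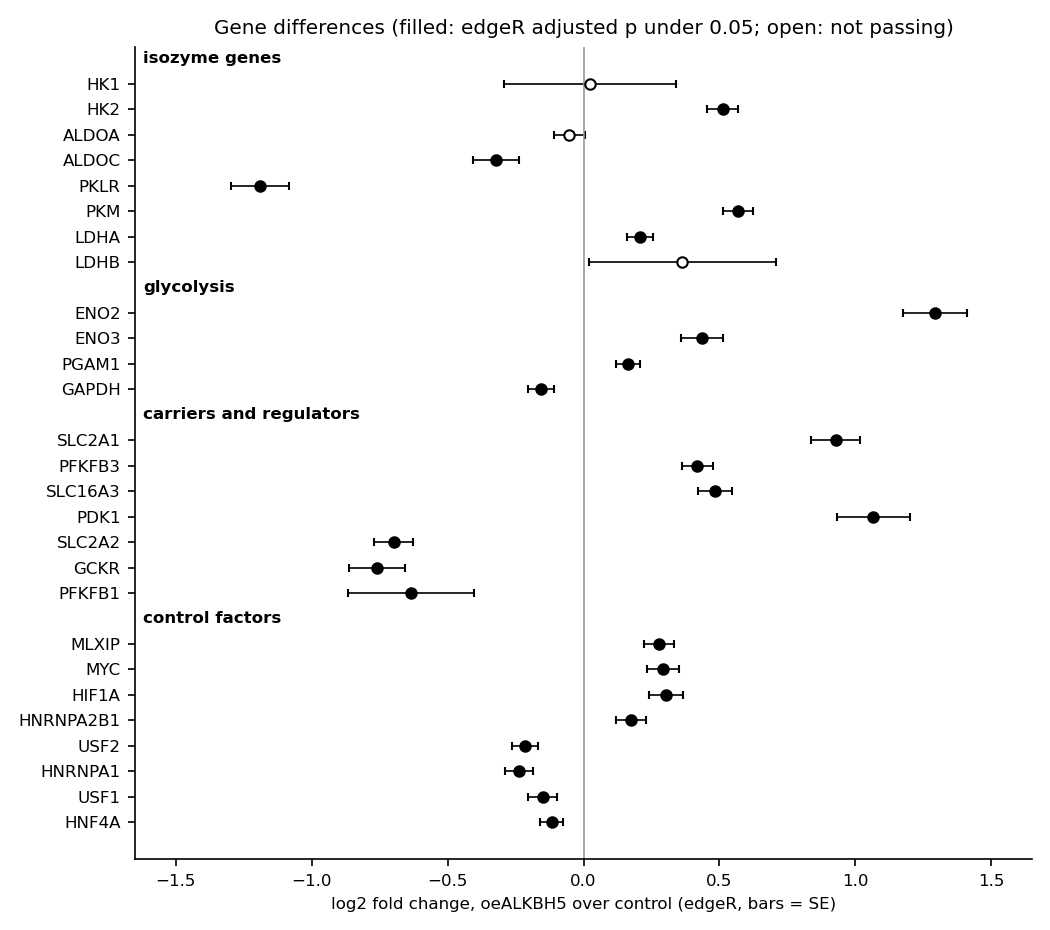
Log2 fold change of oeALKBH5 over control with its SE, for the isozyme genes and the named genes of the 3 lists; filled points passed at an edgeR adjusted p under 0.05 and open points did not. PKLR lies lowest at -1.19 among the isozyme genes and PKM highest at 0.57.

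Over the 6 libraries, the genes whose centred log2 CPM lay closest to that of PKM were ANKRD33B, UAP1L1 and PHF21A, with root mean square differences of 0.0306, 0.0351 and 0.0353. For PKLR they were CUBN, H2BC9 and ADCY5, with differences of 0.0701, 0.0722 and 0.0863. Only genes averaging at least 1 on the log2 CPM scale were compared.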

How the data were processed

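Estimated counts and FPKM values, both by RefSeq transcript, were deposited; the counts carry no scaling between libraries. The submitters' processing notes name RSEM 1.2.8, Bowtie2 2.2.5, HISAT2 2.1.0 and the build GRCh38.p13. Whether counting used strand is not given in the sources used here. A model shares reads out among transcripts of like sequence, so transcripts of a gene, and genes with pseudogene copies (5 named for PKM, 6 for LDHA, 3 for LDHB, 2 for ALDOA and 1 for HK2 in GENCODE), are uncertain one by one.

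The members and lists were chosen with earlier results of these data known. Named were all 8 genes, their transcripts with a mean of at least 0.1 FPKM in either group (32 of 40, the smallest given as sums or ranges), paralogues (some are not reported here), and up to 4 higher and 4 lower genes per list by p. Transcripts were summed by Entrez gene and rounded, then tested with edgeR 4.0.16 (R 4.3.3): TMM scaling, expression filter at a minimum count of 10, robust quasi-likelihood fit on group, two-sided, Benjamini-Hochberg adjustment over all features, threshold 0.05. Single transcripts were tested likewise, and their use within a gene with diffSpliceDGE. A standard error is the fold change on the log2 scale, without sign, divided by the root of the F statistic. CPM used TMM-scaled library sizes. Shares and ratios of FPKM were compared by exact permutation. Loci and exons came from GENCODE release 29, promoter windows from RefSeq. Of the 40 transcripts, 26 were matched to GENCODE. The scripts were tested on simulated data, in which edgeR's transcript test recovered few changes at the spread of these transcripts and most larger ones at the spread of gene sums; diffSpliceDGE recovered none at the first spread and made false calls at both. Alternatives were 3 other scalings, no filter, DESeq2 1.42.0, limma-voom (limma 3.58.1), log2(FPKM + 1) and log2(FPKM + 0.1), the replicate number as a block, and leaving out each library.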

Additional observations from a re-analysis of the deposited data

How the results depend on the processing

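PKM, PKLR, HK2 and LDHA kept their direction and their side of the threshold under all 15 alternatives, with log2 fold changes from 0.49 to 0.65, from -1.27 to -0.91, from 0.46 to 0.59 and from 0.16 to 0.29. ALDOC ranged from -0.44 to -0.24 and lost its call without oeALKBH5 replicate 3. ALDOA changed sign with library size alone (0.027) and on log2(FPKM + 1) and log2(FPKM + 0.1) (0.021 for each), and ran from -0.13 to 0.0075 when single libraries were left out. HK1 ran from -0.26 to 0.37 and LDHB from 0.041 to 0.87 under these omissions; depth limits both, at 10 to 36.1 estimated counts per library.

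The count of transcripts passing was 461, against 4053 with DESeq2, 1016 on log2(FPKM + 1), 911 on log2(FPKM + 0.1) and 7 to 160 with single libraries left out. By TMM scaling 128 of these were higher and 333 lower, against 201 and 224 with library size alone. Use within a gene passed for 25 transcripts, against 6 with no filter, 248 with limma's diffSplice and 12 to 27 with single libraries left out. The count of genes passing ran from 4878 to 6353 under such omissions. Transcript values that had not passed turned their sign in a few fits: NM_002654.6 in use with limma's diffSplice (-0.48), XM_005257949.2 in use with the same tool (-0.18), with the replicate block (-0.12) and over omissions (-0.34 to 0.37), and, in level over omissions, XM_011521670.2 (-8.19 to 0.56), NM_002300.8 (-0.067 to 0.76) and XM_005257949.2 (-0.78 to 0.11). The cause was not tested.

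The log2 ratios differed by 1.74 to 1.96 for PKM over PKLR, 0.23 to 0.30 for ALDOA over ALDOC, 0.016 to 0.81 for HK2 over HK1 and -0.68 to 0.19 for LDHA over LDHB with single libraries left out.

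Deviations of same-numbered libraries from their group means had correlations of -0.019, 0.016 and -0.012 over genes. No label says whether same-numbered libraries shared a culture or a batch, and these correlations cannot decide it. With the replicate block 6469 genes passed, against 6062 without it, and 0 transcripts, against 461 (3799 and 4876 at an unadjusted p under 0.05), and 12 in use, against 25. The block changed no call on the 8 genes (PKM 0.56, edgeR adjusted p = 4.49e-08, and PKLR -1.19, edgeR adjusted p = 3.27e-07). As 3 paired differences the ratios cannot go below an exact p of 0.25, which PKM over PKLR reached.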
